A study of Homo sapiens with 6 samples.

Results

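The condensin subunits and DNA topoisomerase II enzymes were followed in AGS cells, a human gastric adenocarcinoma cell line, after knockdown of C1GALT1, the enzyme that adds galactose to form the core 1 structure of mucin-type O-glycans. The 10 genes are SMC2, SMC4, NCAPH, NCAPD2, NCAPG, NCAPH2, NCAPD3, NCAPG2, TOP2A and TOP2B. They were chosen by name as the subunits of both condensin complexes and both topoisomerase II isoforms, and their probes were found through the RefSeq accession that the array gives for each probe. They had 15 probes of the 58201 on the array, or 10 of the 22439 genes that could be named. One group was transfected with a nontargeting siRNA, labelled si-control, and the other with an siRNA against C1GALT1, labelled si-C1GALT1-3, and RNA was taken after 48 h. There were 3 samples in each group, read on separate one-colour arrays. Because a single C1GALT1 siRNA was profiled, changes through C1GALT1 and other effects of that siRNA cannot be told apart. The cells were otherwise the same AGS line in 10% FBS in both groups.

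Condensins are ring-shaped complexes that fold chromatin into compact chromosomes when cells enter mitosis. SMC2 and SMC4 are the ATPase arms shared by both complexes, condensin I adds NCAPH, NCAPD2 and NCAPG, and condensin II adds NCAPH2, NCAPD3 and NCAPG2. Topoisomerase II passes one DNA duplex through another, which lets sister chromatids separate. TOP2A is the isoform of proliferating cells and works with condensin on mitotic chromosomes, while TOP2B is present in dividing and nondividing cells and acts at transcribed genes.

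After C1GALT1 siRNA, TOP2A fell 2.55-fold and NCAPG2 fell 2.23-fold. The other 8 members did not pass the threshold. Among them was SMC4, whose brighter probe was at a 2.67-fold lower mean with an unadjusted p of 0.0126 in limma. The condensin I subunits NCAPH, NCAPD2 and NCAPG, the condensin II subunits NCAPH2 and NCAPD3, the ATPase SMC2 and TOP2B were the rest. A gene counted as called when the unadjusted p of the limma fit was under 0.01 and the change was at least 2-fold, with the brightest probe of a gene standing for it. By that rule 2 of 10 genes were lower and 0 were higher, where 1.33% of the 22438 genes tested were called lower and 2.07% higher. The members were chosen with earlier results of these data known. Both called genes are among those the study selected on these samples, so these counts carry no test. Of the 15 probes 3 were called lower, where 0.991% of all probes were. After Benjamini-Hochberg adjustment over all probes no member reached 0.05, the smallest adjusted p being 0.142 in limma. Across all genes 31, or 0.138%, did reach it, and the smallest adjusted p of any probe in limma was 0.0499. With the spots marked as outliers kept, 0 probes reached 0.05. At an unadjusted p under 0.05, 3 members were lower, against 7.14% of all genes. These values are from the fit that leaves the slide out. With the slide as a block the 2 members called were SMC4 and TOP2A, where 1.26% of all genes were called lower.

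The targeted gene was checked first. C1GALT1 (probe A_23_P252145) had a normalized log2 signal of 12.22, 13.03 and 12.62 in si-control replicates 1, 2 and 3, and of 11.76, 11.98 and 11.13 in si-C1GALT1-3 replicates 1, 2 and 3. The groups did not overlap, the highest si-C1GALT1-3 value being under the lowest si-control value. The fitted log2 fold change was -1.0 with a standard error of 0.31, an unadjusted p of 0.0193 and an adjusted p of 0.265 in limma, so C1GALT1 itself was lower by 2-fold and missed the p threshold. Same-numbered replicates share a slide, and within slides 1, 2 and 3 the difference was -0.47, -1.05 and -1.49.

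On the arrays, between 66.2% and 72.7% of the gene spots were well above background, no gene spot was saturated, and all 15 member probes were well above background on every array where they were used. The array of si-control replicate 2 has a central region of low signal with 9712 gene spots, which were left out, and this removed that array's value for the second SMC4 probe and for 1 of the NCAPH2 probes. The si-control array always lay in the same position of the slide and the si-C1GALT1-3 array in another, so position and siRNA cannot be told apart. All 6 epithelial markers measured, KRT8, KRT18, KRT19, EPCAM, CLDN4 and CLDN7, were well above background. CLDN7 was at a log2 fold change of -0.65 with a p of 0.0109 and groups that did not overlap, and was not called. Of the gastric markers TFF1, TFF2, MUC6 and PGC were well above background while GKN1 and CLDN18 were not. Of 8 markers of other cell types, 5 were well above background on all measured arrays of at least 1 group, among them the leukocyte gene PTPRC, and 3, DCN, COL1A2 and PECAM1, were not; none of the 8 was called. The endothelial gene VWF, with no value on the array of si-control replicate 2, was at -1.03 with a p of 0.0178, and its groups did not overlap. The log2 of the summed signal of the other 7, in which PTPRC is the brightest, ranged from 13.67 to 14.39 in si-control and from 13.62 to 13.77 in si-C1GALT1-3, and their part in the results was not tested. In RNA from a whole culture, fewer cells in the phase that transcribes a gene and less RNA per cell cannot be told apart.

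The stretch of DNA just upstream of the start site is shown for 5 of the genes, because motifs of cell cycle promoters can be read in it and because it lets called and uncalled genes be compared. In background, the cell cycle genes homology region, or CHR, is a motif bound by complexes of the MuvB core that repress or activate late cell cycle genes, the CCAAT box is bound by NF-Y, and E2F motifs are bound by E2F factors. Each sequence is the 250 bases before the start in RefSeq on GRCh38.p14, written 5′ to 3′ on the strand of the gene, with the letters that match a motif in capitals. TOP2A and NCAPG2 were called lower, and SMC4, NCAPG and NCAPD2, which were not called by their brightest probe, are given beside them.
TOP2A, chr17:40417897-40418146, minus strand: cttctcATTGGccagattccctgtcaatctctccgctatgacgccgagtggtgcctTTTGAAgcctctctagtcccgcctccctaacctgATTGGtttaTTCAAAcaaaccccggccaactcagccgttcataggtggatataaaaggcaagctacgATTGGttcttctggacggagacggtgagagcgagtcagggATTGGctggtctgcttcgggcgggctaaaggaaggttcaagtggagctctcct
NCAPG2, chr7:158704805-158705054, minus strand: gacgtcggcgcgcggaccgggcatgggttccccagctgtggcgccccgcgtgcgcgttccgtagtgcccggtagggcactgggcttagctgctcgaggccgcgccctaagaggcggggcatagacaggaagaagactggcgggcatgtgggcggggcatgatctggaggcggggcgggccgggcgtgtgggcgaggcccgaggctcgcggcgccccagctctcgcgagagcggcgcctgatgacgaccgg
SMC4, chr3:160399400-160399649, plus strand: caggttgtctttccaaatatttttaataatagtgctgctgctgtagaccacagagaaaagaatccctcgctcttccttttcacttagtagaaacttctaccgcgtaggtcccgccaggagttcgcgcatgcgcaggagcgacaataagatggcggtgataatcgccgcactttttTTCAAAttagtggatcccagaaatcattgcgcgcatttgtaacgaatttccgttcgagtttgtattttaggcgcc
NCAPG, chr4:17810729-17810978, plus strand: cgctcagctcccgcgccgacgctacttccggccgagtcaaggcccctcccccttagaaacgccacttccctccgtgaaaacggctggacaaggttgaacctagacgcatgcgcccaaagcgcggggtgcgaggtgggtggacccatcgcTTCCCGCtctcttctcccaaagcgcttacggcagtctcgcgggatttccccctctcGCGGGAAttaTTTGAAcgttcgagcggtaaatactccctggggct
NCAPD2, chr12:6493852-6494101, plus strand: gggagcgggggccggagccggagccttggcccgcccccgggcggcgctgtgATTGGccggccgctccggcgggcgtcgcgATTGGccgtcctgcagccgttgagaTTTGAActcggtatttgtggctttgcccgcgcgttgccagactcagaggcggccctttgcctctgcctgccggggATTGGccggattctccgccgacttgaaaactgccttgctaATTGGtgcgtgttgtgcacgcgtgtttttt

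The motifs searched were TTTGAA and TTCGAA for CHR, CCAAT, and TTCCCGC and TTGGCGC for E2F, each on both strands, and no matches of different motifs overlapped in these windows. The TOP2A window held 2 CHR matches, the nearer ending 146 bases before the start, and 4 CCAAT boxes read as ATTGG on the gene strand. The NCAPD2 window also held 4 CCAAT boxes and 1 CHR match. Among 34788 distinct promoter windows of this length, 0.877% held 4 or more CCAAT boxes, 32% held at least 1, 14.4% held CHR and 7.81% held E2F. The NCAPG window held 1 CHR match and 2 E2F matches. SMC4 has 2 start sites in the table, and the window shown held 1 CHR match while the other held none of these motifs. The NCAPG2 window held none of these letters. The called genes TOP2A and NCAPG2 thus differ in these letters, and NCAPD2 carries the same count of CCAAT boxes as TOP2A without passing the threshold. Of the genes not shown, none of them called, 1 window of TOP2B held 1 CHR match and 2 CCAAT boxes. In NCAPD3, 1 window held 2 CCAAT boxes and 1 E2F match, and the NCAPH window held 1 CCAAT box. Over the 9 members with a window in the table, 13 windows were searched. In at least 1 window, 5 members held CHR, 5 held CCAAT and 2 held E2F. By window, the unit of the shares above, the counts were also 5, 5 and 2 of 13. A match is a description of the letters only.

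SMC4, the ATPase subunit that pairs with SMC2 in both condensins, was read by a pair of probes. The brighter, A_33_P3248519, had a normalized log2 signal of 14.39, 14.54 and 13.70 in si-control replicates 1, 2 and 3. In the si-C1GALT1-3 replicates it was 13.14, 13.19 and 12.05. The groups did not overlap, and replicate 3 was the lowest array of each group. The fitted log2 fold change was -1.42 with a standard error of 0.40 and a 95% interval from -2.40 to -0.44, and its unadjusted p of 0.0126 missed the threshold. Within slides 1, 2 and 3 the difference was -1.25, -1.35 and -1.66. With the slide as a block the same change had a p of 0.000987 in limma and SMC4 was called. The second probe, A_33_P3716128, was 11.75 and 11.96 in si-control replicates 1 and 3 and 10.67, 10.82 and 10.12 in si-C1GALT1-3 replicates 1, 2 and 3. That fit used 2 si-control arrays, because the spot lies in the low region of the array of si-control replicate 2, where its processed intensity was 9 against 4200 and 3130 on the other si-control arrays. Its log2 fold change was -1.32 with a standard error of 0.27 and an unadjusted p of 0.00517, so this probe passed the threshold. With the slide as a block this probe was at -1.46 with a p of 0.0213 and no longer passed, and with the low region kept it was at 1.52 with a p of 0.557.

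SMC2, the other shared ATPase, was less clear. Its brighter probe, A_33_P3378334, was 9.91, 10.71 and 11.03 in si-control replicates 1, 2 and 3 and 10.09, 10.20 and 9.97 in the si-C1GALT1-3 replicates. The groups overlapped, since si-control replicate 1 was the lowest of all 6 arrays. The log2 fold change was -0.46 with a 95% interval from -1.21 to 0.29 and a p of 0.184. The second SMC2 probe, A_33_P3357322, read 9.54, 9.33 and 9.67 in si-control and 8.87, 8.92 and 8.09 in si-C1GALT1-3. Here the groups did not overlap, with a log2 fold change of -0.89, a standard error of 0.26 and an unadjusted p of 0.0165. The probes therefore differed on whether the groups overlap, and neither passed the threshold.

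**Figure D1:**
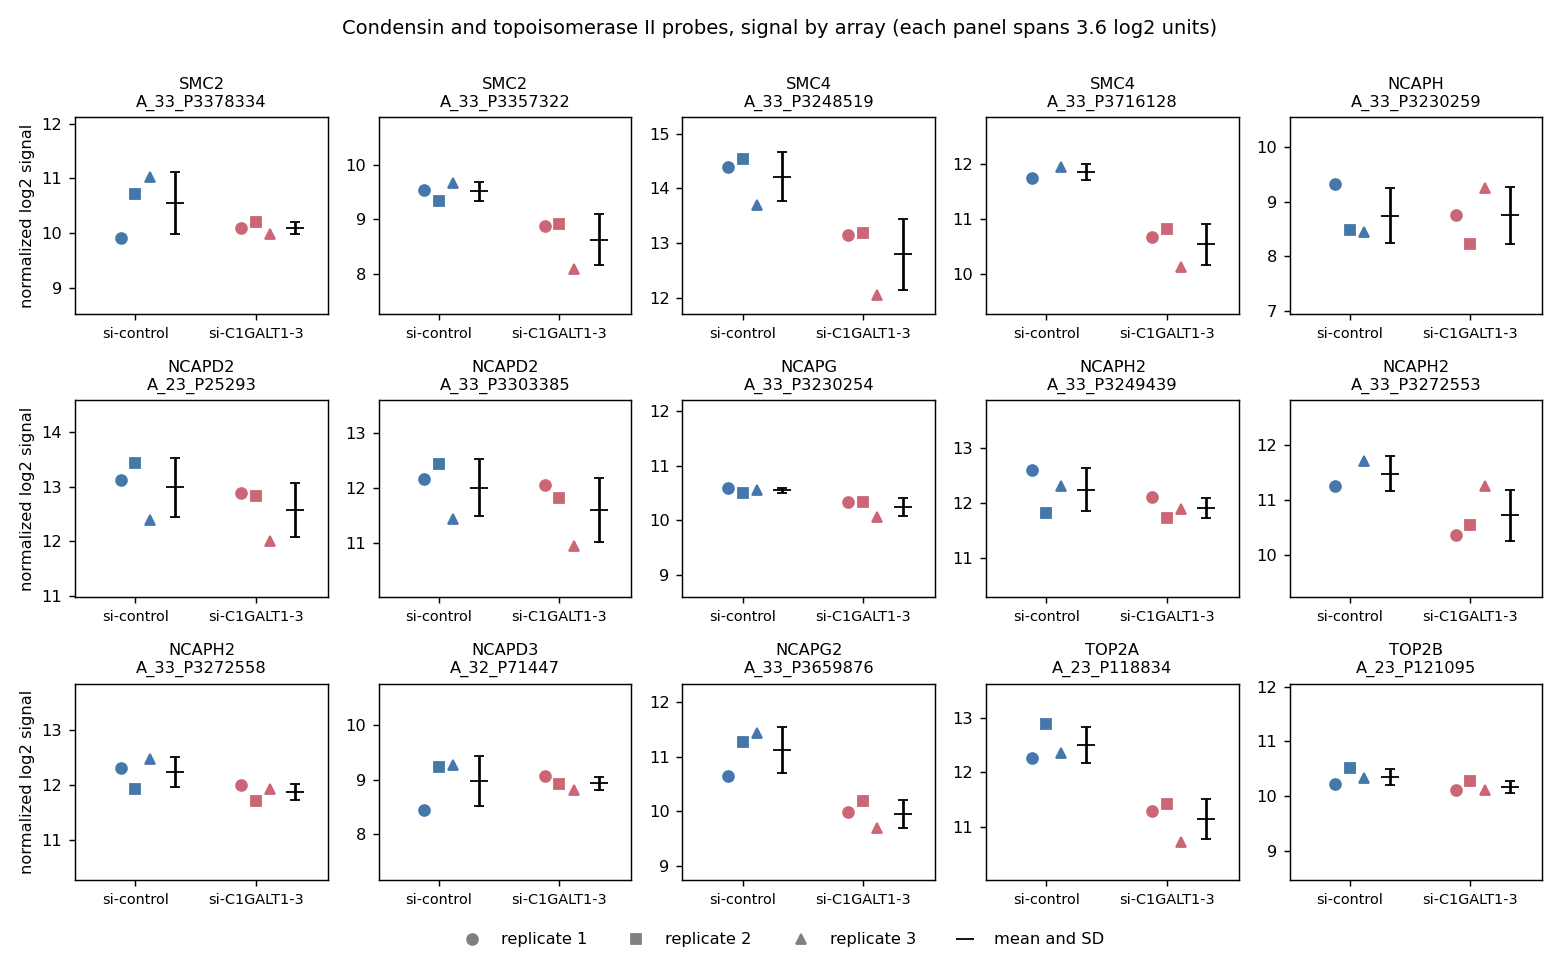
Normalized log2 signal of each of the 15 probes on each array, 1 panel per probe, with si-control and si-C1GALT1-3 on the horizontal axis, a marker shape for each replicate, and the mean and SD as bars. SMC4, NCAPG2 and TOP2A show si-C1GALT1-3 arrays well below the si-control arrays, TOP2B and the condensin I probes lie closer together, and si-control replicate 2 is missing for 1 SMC4 and 1 NCAPH2 probe.

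The 3 subunits particular to condensin I gave no call in limma, where 1.33% of all genes were called lower and 2.07% higher. The median log2 fold change of the 3 was -0.30. In the fit without the slide, 0 of them had an unadjusted p under 0.05. With the slide as a block NCAPD2 did, at a p of 0.0426 in limma. NCAPH, the kleisin that closes the ring, was 9.32, 8.48 and 8.44 in si-control replicates 1, 2 and 3 and 8.76, 8.22 and 9.25 in si-C1GALT1-3 replicates. The groups overlapped fully, at a log2 fold change of 0.0016 with a 95% interval from -0.90 to 0.90, so changes up to nearly 2-fold in either direction lie within that interval. The direction of NCAPH was not settled, with within-slide differences of -0.56, -0.25 and 0.81.

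NCAPD2, a HEAT-repeat subunit of condensin I, was 13.12, 13.44 and 12.39 in si-control and 12.88, 12.83 and 12.01 in si-C1GALT1-3. It was lower on each of the 3 slides, by -0.24, -0.61 and -0.39. The groups overlapped, with an SD between replicates of 0.54 in si-control and 0.49 in si-C1GALT1-3. Its log2 fold change was -0.41 with a 95% interval from -1.33 to 0.50 and a p of 0.308 in limma. With the slide as a block the same change had a standard error of 0.13 and a p of 0.0426, and was not called. The second NCAPD2 probe, A_33_P3303385, was also at -0.41, with a p of 0.346, or 0.0693 with the slide as a block. NCAPG, the other HEAT-repeat subunit, was tight in si-control, at 10.59, 10.50 and 10.55, and lay at 10.34, 10.33 and 10.05 in si-C1GALT1-3. The groups did not overlap, and the log2 fold change was -0.30 with a 95% interval from -0.65 to 0.04 and a p of 0.0755. The interval leaves out a 2-fold fall of NCAPG.

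Of the 3 subunits particular to condensin II, 1 was called lower, where 1.33% of all genes were. The median log2 fold change of the 3 was -0.34, close to the -0.30 of condensin I. NCAPG2, the HEAT-repeat subunit that corresponds to NCAPG, had a log2 signal of 10.64, 11.27 and 11.44 in si-control replicates 1, 2 and 3. In si-C1GALT1-3 replicates 1, 2 and 3 it was 10.00, 10.20 and 9.69. All 3 si-C1GALT1-3 values were under the lowest si-control value, and the processed intensity before normalization was 1966, 2304 and 2157 against 1210, 1391 and 670. The log2 fold change was -1.16 with a standard error of 0.26, a 95% interval from -1.81 to -0.51, an unadjusted p of 0.00513 and an adjusted p of 0.171 in limma. Within slides 1, 2 and 3 the difference was -0.65, -1.07 and -1.75. With the slide as a block the p was 0.0156 and the call was lost. It was also lost on leaving out si-control replicate 2 or 3 or si-C1GALT1-3 replicate 1 or 3, with a p between 0.0174 and 0.0197.

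NCAPH2, the condensin II kleisin, had 3 probes. The brightest, A_33_P3249439, was 12.60, 11.82 and 12.31 in si-control and 12.10, 11.73 and 11.89 in si-C1GALT1-3. The groups overlapped, at a log2 fold change of -0.34 with a 95% interval from -0.93 to 0.26 and a p of 0.213. The probe A_33_P3272558 was at -0.37 with a p of 0.106, and A_33_P3272553, measured on 2 si-control arrays, was at -0.76 with a p of 0.0782. All 3 were lower and none passed. NCAPD3, the HEAT-repeat subunit that corresponds to NCAPD2, was 8.45, 9.23 and 9.26 in si-control and 9.06, 8.93 and 8.82 in si-C1GALT1-3. It was higher on slide 1, by 0.61, and lower on slides 2 and 3, by -0.30 and -0.44. Its log2 fold change was -0.04 with a 95% interval from -0.68 to 0.59 and a p of 0.870.

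TOP2A, the isoform of proliferating cells, was read by probe A_23_P118834. Its log2 signal was 12.25, 12.88 and 12.36 in si-control replicates 1, 2 and 3 and 11.29, 11.42 and 10.73 in si-C1GALT1-3 replicates 1, 2 and 3. The highest si-C1GALT1-3 array lay below the lowest si-control array. The log2 fold change was -1.35 with a standard error of 0.27, a 95% interval from -2.01 to -0.69, an unadjusted p of 0.00263 and an adjusted p of 0.142 in limma. Within slides 1, 2 and 3 the difference was -0.96, -1.46 and -1.63, and TOP2A stayed called with the slide as a block and on leaving out each of the 6 arrays in turn. Without normalization between arrays, or in the table of the whole series, it missed the p threshold, at -1.25 with a p of 0.0158 and -1.39 with a p of 0.0105.

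TOP2B, the isoform that nondividing cells also have, was read by 10 spots of the same probe on each array, and the coefficient of variation over those spots was between 3.87% and 8.89%. Its log2 signal, averaged over the spots, was 10.22, 10.52 and 10.32 in si-control and 10.11, 10.28 and 10.10 in si-C1GALT1-3. It was lower on each slide, by -0.11, -0.23 and -0.22, and the groups overlapped. The log2 fold change was -0.19 with a standard error of 0.14, a 95% interval from -0.54 to 0.17 and a p of 0.242. A 2-fold fall of TOP2B lies outside this interval.

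**Figure D2:**
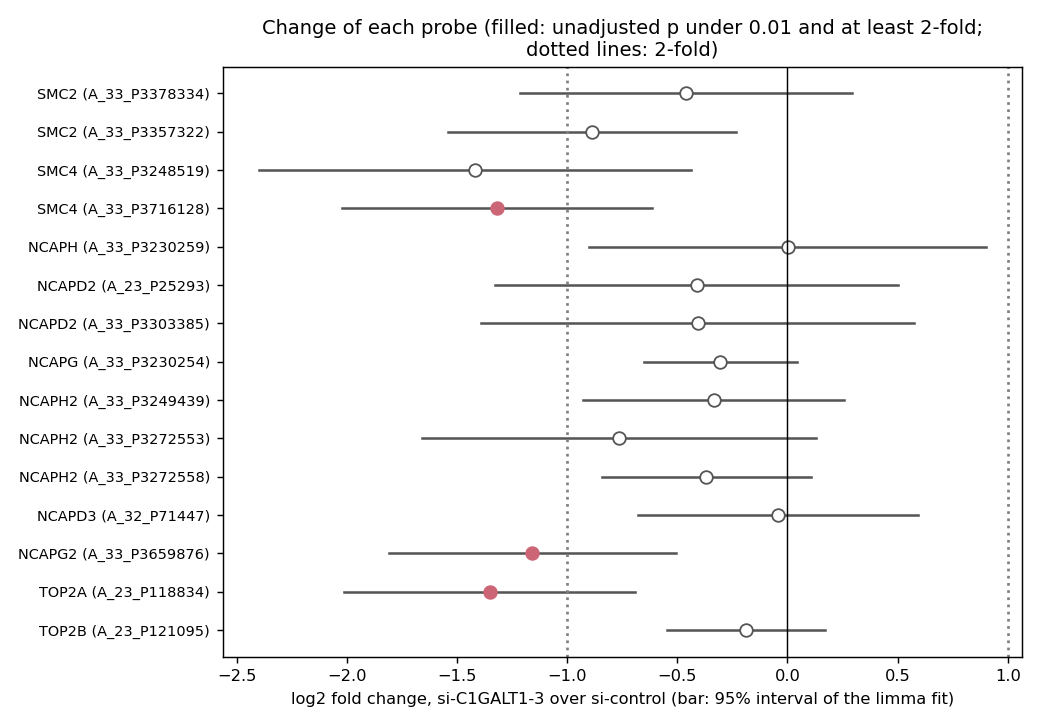
Log2 fold change of si-C1GALT1-3 over si-control for each of the 15 probes, with the 95% interval of the limma fit as a bar, the 2-fold lines dotted and called probes filled. The second SMC4 probe, NCAPG2 and TOP2A are filled at -1.32, -1.16 and -1.35, the intervals of the brighter SMC4 probe and the second SMC2 probe also lie below 0, and those of the other 10 probes cross 0.

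Whether TOP2A changed more than TOP2B was asked on the difference between their log2 signals within each array, which removes what both share. That difference was 2.04, 2.37 and 2.04 in si-control replicates 1, 2 and 3 and 1.19, 1.14 and 0.63 in si-C1GALT1-3 replicates. Every si-C1GALT1-3 value lay below every si-control value. The mean difference between groups was -1.16, with a two-sided exact permutation p of 0.1, the smallest that 3 against 3 arrays can give. That test leaves the slide pairs out. An exact sign-flip test over the 3 slides gave a p of 0.25, also the smallest it can give. Since they are different probes, the size of the difference on one array does not compare their transcript levels.

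Of the 10 members 9 had a fitted value below 0, against 47.6% of all genes tested, and 7 were below on all 3 slides, against 22% of the 18830 genes measured on all 3. NCAPH and NCAPD3 changed sign in 7 and 4 of the 18 alternatives. The median over the 10 was -0.37 against 0.019 over all genes tested. In 4 members, SMC4, NCAPG, NCAPG2 and TOP2A, all si-C1GALT1-3 values were under the lowest si-control value, and in 0 members all were over the highest, where 11.2% and 14% of all genes did so. By complex, the median log2 fold change was -0.94 for SMC2 and SMC4, -0.30 for condensin I, -0.34 for condensin II and -0.77 for TOP2A and TOP2B. The medians of 2 genes lie between unlike values, SMC4 at -1.42 and SMC2 at -0.46, and TOP2A at -1.35 and TOP2B at -0.19. SMC4, NCAPG2 and TOP2A are among the mitotic cell cycle genes that the study selected on these same samples, so their direction is not independent evidence. The others were not so selected.

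The proteins that load, phosphorylate or work beside condensin were followed through a list of 16 genes, 14 of which had a named probe. Of these 6 were called lower and 0 higher, where 1.33% and 2.07% of all genes were, 10 had a fitted value below 0 and 4 above, and the median log2 fold change was -1.11. BIRC5, the survivin subunit of the chromosomal passenger complex, was 12.28, 12.31 and 12.96 in si-control and 11.29, 10.92 and 10.61 in si-C1GALT1-3, a log2 fold change of -1.58 with a standard error of 0.27 and a p of 0.00136. The groups did not overlap. The other called genes were TTK, the spindle checkpoint kinase, at -1.31 with a p of 0.000338, CDCA8, the borealin subunit of the passenger complex, at -1.31, CDK1, the mitotic kinase that phosphorylates condensin, at -1.26, AURKB, the passenger complex kinase, at -1.19, and KIF4A, a chromosome-bound kinesin that binds condensin, at -1.09. The highest value was that of PHF8, a histone demethylase, at 0.44 with a p of 0.0309, which was not called. With the slide as a block 3 of the 14 genes were called, and without si-C1GALT1-3 replicate 3 also 3. All 6 of the genes called here are among those the study selected on these samples.

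**Figure D3:**
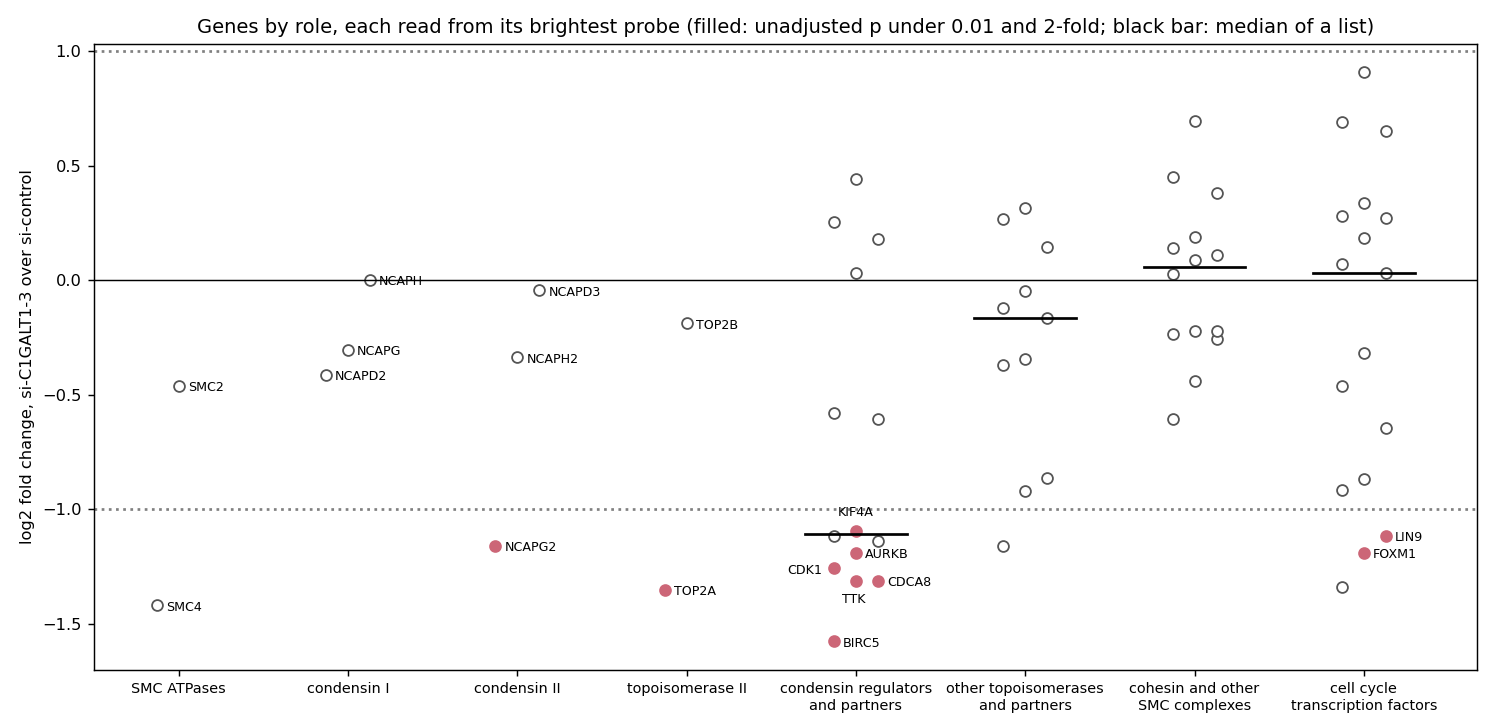
Log2 fold change of si-C1GALT1-3 over si-control for the members by role and for the genes of 4 lists, with called genes filled and named and a bar at the median of each list. The regulators and partners of condensin have 6 filled points below -1 and a median of -1.11, while the medians of the other topoisomerases, cohesin with other SMC complexes, and the transcription factors lie between -0.17 and 0.06.

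The other topoisomerases and their partners gave 0 calls by limma in 11 genes at the threshold used, with a median log2 fold change of -0.17. TOP1, the main type I enzyme, was 13.67, 14.10 and 13.98 in si-control and 13.54, 13.88 and 13.83 in si-C1GALT1-3, at -0.17 with a p of 0.394. The lowest value was that of BLM, the helicase that works with TOP3A, at -1.16 with a standard error of 0.34 and a p of 0.0148, and the highest was that of TOP3B at 0.31 with a p of 0.0905. Cohesin and the other SMC complexes also gave 0 calls, in 14 genes, with a median of 0.06. Over all genes 1.33% were called lower and 2.07% higher, so 0 calls in lists of 11 and 14 genes is near those shares. SMC1A and SMC3, the ATPases of cohesin, were at -0.44 with a p of 0.0317 and at -0.22 with a p of 0.222. The list ranged from NSMCE4A, a subunit of the SMC5/6 complex, at -0.60 to STAG1, a cohesin subunit, at 0.69. An unadjusted p under 0.05 was reached by 2 of the 11 genes, BLM and RMI2, and by 2 of the 14, NSMCE4A and SMC1A, all lower, where 7.14% of all genes were lower at that p.

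Factors of cell cycle promoters were read through 17 genes, some of which bind the motifs printed above. Of the 17, 2 were called lower and 0 higher, where 1.33% and 2.07% of all genes were. At an unadjusted p under 0.05, 6 were lower and 2, E2F3 at 0.69 and LIN52, were higher. FOXM1, a forkhead activator of late cell cycle genes, was 11.71, 12.08 and 12.59 in si-control and 10.97, 11.08 and 10.77 in si-C1GALT1-3, at a log2 fold change of -1.19 with a p of 0.0038. LIN9, a MuvB core subunit, was 10.99, 11.15 and 11.15 against 10.08, 10.22 and 9.64, at -1.11 with a p of 0.00129. In both, the groups did not overlap. The lowest value was that of E2F2, an E2F activator, at -1.34 with a standard error of 0.51 and a p of 0.0397, which was not called, and the highest was that of LIN52, another MuvB subunit, at 0.91 with a p of 0.0342, also not called. LIN52 was well above background on all 3 si-C1GALT1-3 arrays but on only 1 of the 2 si-control arrays measured, at 5.96 and 5.42, and entered through the group where it is high, so its size is uncertain. The list as a whole had 8 genes below 0 and 9 above, at a median of 0.03. LIN9 was selected by the study on these samples and FOXM1 was not. With the slide as a block 1 of the 17 genes was called, and without si-C1GALT1-3 replicate 3 the count was 0.

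The genes whose signal over the 6 arrays was most like that of TOP2A were sought among 14161 genes well above background on every array. They were NTAQ1, with a Pearson correlation of 0.9989, PLEKHF2 with 0.9982, DPY30 with 0.9971, MICOS10-NBL1 with 0.9967 and PPIL4 with 0.9962. Their log2 fold changes were -1.41, -0.77, -1.20, -0.67 and -0.89 in that order. Among the members the correlation with TOP2A was 0.943 for SMC4, 0.936 for NCAPG2, 0.882 for NCAPG and 0.852 for TOP2B. It was 0.686 for NCAPD2, 0.644 for SMC2, 0.304 for NCAPH2, 0.280 for NCAPD3 and -0.306 for NCAPH. Many other genes were closer, since SMC4 ranked 289, NCAPG2 331, NCAPG 656 and TOP2B 827 among the 14161. The 6 arrays fall into the compared groups and share slides, so these values describe the arrays and carry no test.

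**Figure D4:**
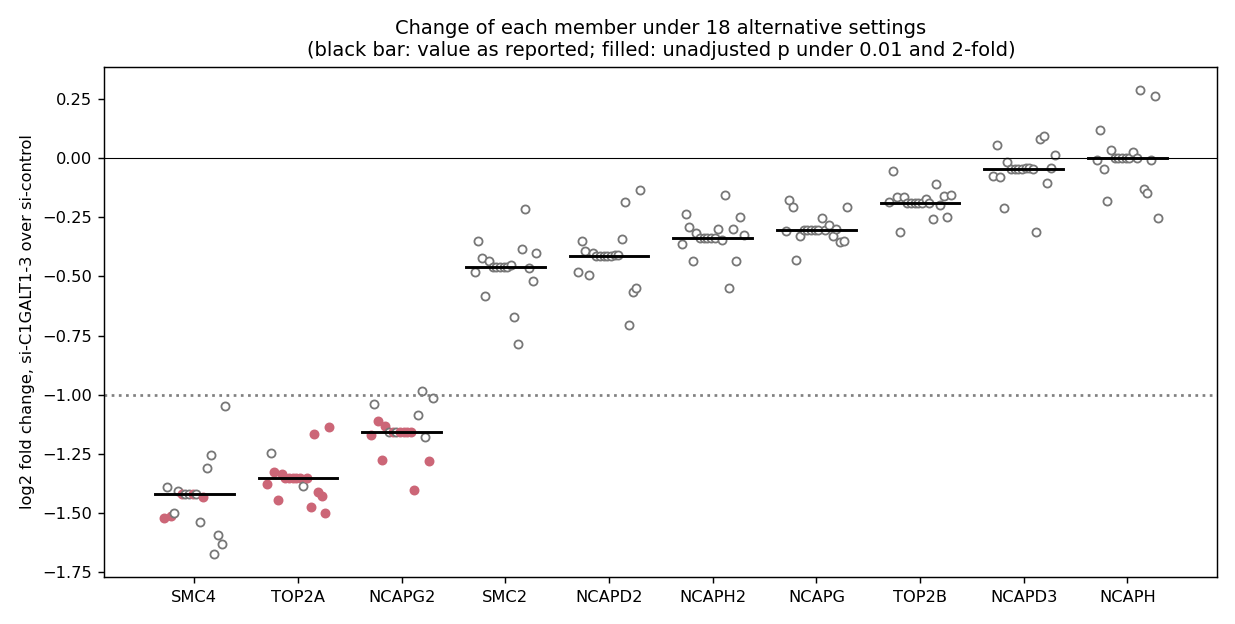
Log2 fold change of each member under 18 other ways of processing the arrays or leaving one out (points, filled where called), with the reported value as a black bar. SMC4, TOP2A and NCAPG2 stay between -1.67 and -0.99, TOP2B stays between -0.31 and -0.06, and NCAPD3 and NCAPH lie on both sides of 0.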

How the data were processed

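Total RNA of 6 AGS cultures or portions, 3 per group, was hybridized to one-colour arrays, 1 per sample. The authors deposited the spot intensity given by Agilent Feature Extraction 10.5.1.1 (the version is from the submitters' processing notes), whose processed column has the background removed and differs in overall level from array to array. The series table holds background-subtracted intensity of the same spots.

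Control spots, spots marked as outliers, and the spots in rows 113 to 288 and columns 59 to 115 of the array of si-control replicate 2 were left out. The log2 of the processed intensity was quantile normalized, values of 1 probe were averaged over its spots, and si-C1GALT1-3 was set against si-control in limma 3.58.1 (lmFit and eBayes) in R 4.3.3, without covariates, with Benjamini-Hochberg adjustment over the 58195 probes tested. Of the 58201 probes, 31104 were named through RefSeq accessions in a gene table of GRCh38.p14. The headers name another build, so gene coordinates are not given, and those printed belong to the promoter windows of that table, in which 9 of 10 members were found (NCAPH2 was not).

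The members, lists and tests were chosen with earlier results of these data known. The genes named are all members, C1GALT1, the called genes and the largest fall and rise of each list among genes well above background on all 3 arrays of a group, and the 5 most like TOP2A. TOP1, SMC1A, SMC3, RMI2 and E2F3 were named after their values were seen, and so were the markers. No source says that the samples came from separate cultures, so p-values measure only the spread between these samples, which may be technical. The number of arrays limits the precision. Replicates of the same number lie on the same slide, and the correlation of their deviations from the group means was 0.198, 0.215 and 0.329, against -0.215 to 0.0103 for other pairs. The numbers were therefore taken to mark pairs. The reported fit does not use the pairs, and a fit with the slide as a block was added as an alternative. Others were 75th percentile scaling, no normalization, and normexp with an offset of 50 on the median spot signal (the mean was not used here). Further ones were keeping or widening the region (by 10 rows and columns), a trend and robust prior, a Student's t-test, and leaving out dim probes. The last were keeping outlier spots, the series table with a floor of 10, the median of a gene's probes, and leaving out each array in turn.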

Additional observations from a re-analysis of the deposited data

How the results depend on the processing

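TOP2A and NCAPG2 were the members called as reported. No member was called without normalization between arrays, and 1 was with the Student's t-test (TOP2A) and with the series table (NCAPG2). With 75th percentile scaling, normexp, dim probes left out or the median over probes 3 were called, SMC4 being the one added. With the replicate block the count was 2, SMC4 and TOP2A, and leaving out 1 array gave 1 to 2. Over all 18 alternatives SMC4 ranged from -1.67 to -1.05, NCAPG2 from -1.40 to -0.99, TOP2A from -1.50 to -1.14, SMC2 from -0.78 to -0.22, NCAPD2 from -0.71 to -0.13, NCAPG from -0.43 to -0.18, NCAPH2 from -0.55 to -0.16 and TOP2B from -0.31 to -0.06, and the 15 values of TOP2A minus TOP2B from -1.27 to -0.98, with an exact permutation p of 0.1, or of 0.25, its smallest, over 3 slides with the replicate block. TOP2A missed the threshold without normalization (-1.25, p 0.0158) and in the series table (-1.39, p 0.0105). SMC4 passed it with 75th percentile scaling (-1.52), normexp (-1.51), dim probes left out or the replicate block (-1.42) and the median over probes (-1.43). NCAPG2 missed it without normalization (-1.04), with the replicate block and with the Student's t-test (-1.16). C1GALT1 passed with dim probes left out (-1.0, p 0.00992).

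NCAPH turned to -0.0091 with 75th percentile scaling, -0.046 with normexp and -0.18 with the low region kept, and ranged from -0.25 to 0.29 on leaving out 1 array. NCAPD3 turned to 0.057 without normalization and ranged from -0.31 to 0.095 on leaving out 1 array. Of all probes, 1538 were called, 896 with the Student's t-test, 915 with normexp, 1604 with the replicate block and 1126 to 1781 on leaving out 1 array. The share of called probes that were higher was 62.5%, and 54.1% with 75th percentile scaling, 54.3% with normexp, 72.6% without normalization, 40.2% with the low region kept and 52.2% without si-control replicate 1. 75th percentile scaling moved the median of all probes to -0.107. At an adjusted p under 0.05 there were 49 probes as reported, 545 with dim probes left out and 429 with normexp. There were 0 with the replicate block or on leaving out any 1 array. The count was also 0 with outlier spots kept, a trend and robust prior, the low region kept or no normalization.

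For the condensin regulators the count of 6 became 2 without normalization and 3 with the replicate block, and was 3 to 7 on leaving out 1 array. For the cell cycle transcription factors the count of 2 became 0 without normalization and 0 to 3 on leaving out 1 array. It became 1 with the replicate block, the Student's t-test, the series table or the median over probes. For the other topoisomerases the count of 0 became 1 with 75th percentile scaling and with dim probes left out, and for cohesin it was 0 to 1 on leaving out 1 array, the 1 without si-control replicate 3. The cause of these moves was not tested.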
